A study of Mus musculus with 12 samples.

Results

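Oral soft tissue of mice given DBP together with a chemopreventive agent was compared with oral soft tissue of mice given DBP alone, by DNA methylation at single CpG sites. The 3 samples of each group were chosen by their labels. The comparison used autosomal CpG cytosines (positions) with at least 10 reads in all 6 samples, which were 125641 of the 3335355 autosomal positions read in any of them and of the 5202461 positions read anywhere in the series of 12 samples. It was repeated on 46768 autosomal tiles of 1000 bp with at least 20 reads in each sample. DBP, or dibenzo[a,l]pyrene, belongs to the polycyclic aromatic hydrocarbons formed in tobacco smoke. Per the labels of both groups, female B6C3F1/J mice, 8 weeks old at the start and on AIN-93M diet, received 24 nmol of it inside the mouth, over 5 weeks with 3 doses in each week. Tissue of the cheek, mouth floor and palate was pooled 48 h after the last dose. The labels give no name, dose, route or schedule of the agent, and they do not say whether the DBP group received a vehicle in its place. They also do not say whether each sample was 1 animal, so the spread between samples may be partly technical.

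In mammals, DNA methylation is found mostly at CpG dinucleotides, where maintenance enzymes copy it to the new strand after replication. CpG-dense promoters are mostly unmethylated, gene bodies and the DNA between genes are mostly methylated, and imprinted genes carry methylation on 1 parental allele. DBP is activated by cytochrome P450 enzymes to diol epoxides that bind to DNA as bulky adducts. Chemopreventive agents are given to hinder carcinogenesis at such steps or later ones. Enhanced reduced representation bisulfite sequencing (ERRBS) cuts DNA with MspI at CCGG, converts unmethylated cytosine with bisulfite and reads the fragment ends, so that each read calls a CpG methylated or unmethylated.

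Some of the called positions described below are shown here by their genomic sequence, so that their CpG and its surroundings can be seen beside the values. All were read from the plus strand of mm9 (NCBI build 37). Capitals mark the CpG that was measured, and for the last, the CpGs that were called in a group. The first 4 were more methylated with the agent and the others less.
intergenic, chr8:10854181-10854241: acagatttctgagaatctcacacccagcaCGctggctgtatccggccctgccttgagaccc
Fosb, coding exon, chr7:19890250-19890310: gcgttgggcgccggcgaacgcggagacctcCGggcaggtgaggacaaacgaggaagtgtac
Nek6, upstream, chr2:38367095-38367155: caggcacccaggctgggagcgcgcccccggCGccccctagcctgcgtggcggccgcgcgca
Rgma, intron, chr7:80521246-80521306: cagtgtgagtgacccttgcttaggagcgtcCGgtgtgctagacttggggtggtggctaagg
Sfpi1, intron, chr2:90924730-90924790: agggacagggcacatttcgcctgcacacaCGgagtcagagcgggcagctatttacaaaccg
Rad21l, upstream, chr2:151495778-151495838: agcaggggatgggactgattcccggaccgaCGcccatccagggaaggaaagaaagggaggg
Commd1 intron near Zrsr1, chr11:22872566-22872640: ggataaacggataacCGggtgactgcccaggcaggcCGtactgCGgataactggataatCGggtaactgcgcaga

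Depth separated the groups before any methylation value was compared. The DBP samples held 7515975, 7714065 and 7974299 CpG calls, and the DBP+agent samples held 39615620, 26953761 and 16908728. At the compared positions the median depth was 20, 21 and 22 reads in the DBP samples and 100, 71 and 46 reads in the DBP+agent samples. Every DBP+agent sample was deeper than every DBP sample, so depth and treatment cannot be told apart. Reads of PCR products without molecular identifiers are not independent molecules, and the 95% Wilson intervals below cover counting error only. Where a share is 0, the limit given with it is 3 reads of the total, which also covers counting error only. Positions whose shallowest sample had exactly 10 reads numbered 14330 and were 33.1% methylated in DBP and 33.2% in DBP+agent. The 16802 positions just outside the limit, at 9 reads, were 32.7% methylated in DBP and 32.8% in DBP+agent.

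Average methylation differed between the groups by less than the spread between samples. With 10 reads drawn per position to equalise depth, mean methylation was 29.8%, 29.6% and 29.4% in the DBP samples. It was 30.6%, 29.4% and 29.1% in the DBP+agent samples. The DBP+agent samples lay on both sides of the DBP samples, and the means of 29.6% ± 0.183 (SD, n = 3) and 29.7% ± 0.818 differed by 0.09 points (two-sided exact permutation test, p = 1). With 3 samples against 3 this test cannot give a p below 0.1. Summed over all calls of a sample, methylated calls made up 36.7%, 34.9% and 34% in DBP and 30.7%, 32.0% and 35.5% in DBP+agent (difference -2.44 points, exact permutation test, p = 0.3). Each sample's sum covers a different set of positions.

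In each class of gene region the groups also differed by less than the SD of either group. In the 73050 positions within 1000 bp of the start of a protein-coding gene, where CpG-dense promoters lie, mean methylation was 9.54% ± 0.0860 (SD, n = 3) in DBP and 9.60% ± 0.793 in DBP+agent. In the 14686 positions at 1 to 5 kb from a start it was 44.0% ± 0.363 and 43.9% ± 0.839. Exons farther from a start (6638 positions) stood at 66.8% and 66.9%, introns (11444 positions) at 69.8% and 70.0%, and intergenic DNA (19823 positions) at 57.3% and 57.6%. In all 5 classes the adjusted p of the exact permutation test was 1, and the SD of the DBP+agent samples was larger than that of the DBP samples.

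**Figure D1:**
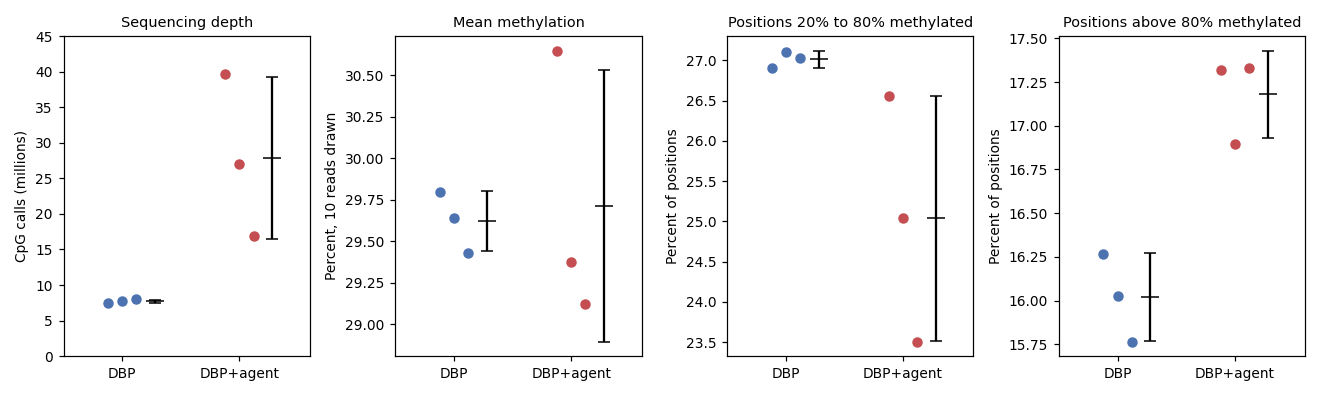
CpG calls, mean methylation, and the shares of positions 20% to 80% and above 80% methylated, for the 3 DBP and 3 DBP+agent samples (points), with the group mean ± SD (bars). The axes of the last 3 panels do not start at 0. The depths are fully separated, the means of 29.6% and 29.7% are not, and both shares are separated.

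Fewer positions stood at intermediate levels in all 3 DBP+agent samples, and more stood near full methylation. With 10 reads drawn, the share of positions between 20% and 80% methylated was 26.9%, 27.1% and 27.0% in the DBP samples and 26.6%, 25% and 23.5% in the DBP+agent samples. All 3 DBP+agent samples were lower, by 1.98 points on average (exact permutation test, p = 0.1, the smallest possible). The share above 80% was 16.3%, 16.0% and 15.8% in DBP and 17.3%, 16.9% and 17.3% in DBP+agent, all higher by 1.16 points on average (p = 0.1 by the exact permutation test). Positions at which all 10 drawn reads were methylated made up 8.54% ± 0.208 (SD, n = 3) in DBP and 10.7% ± 0.761 in DBP+agent. On all reads, fully methylated positions made up 4.67% in DBP and 3.95% in DBP+agent, with overlap (exact permutation test, p = 0.7). When all reads were used in place of 10, the shares between 20% and 80% overlapped, at 22.5% to 22.8% in DBP and 20.3% to 22.9% in DBP+agent (exact permutation test, p = 0.4). With 3 samples per group none of these shares could pass a threshold of 0.05.

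The other 2 groups of the series, DMSO alone and DBP with BR extract, were measured the same way at the 37218 positions with at least 10 reads in all 12 samples. The share between 20% and 80% was 28.5% ± 0.175 (SD, n = 3) in DMSO, 28.8% ± 0.115 in DBP, 26.8% ± 1.26 in DBP+agent and 25.9% ± 0.686 in DBP+BR extract. The share of positions with 10 of 10 reads methylated was 9.64% in DMSO, 9.64% in DBP, 11.7% in DBP+agent and 12.4% in DBP+BR extract. The 2 groups with the lower intermediate shares were also the deeper ones, since DMSO held 3287367 to 7774032 calls and DBP+BR extract 17712547 to 78889043. Inside the DBP+agent group the order was the reverse, with 28.1% in the deepest sample and 25.6% in the shallowest. Among the DBP+BR extract samples the deepest had the lowest share, 25.2%. The part of depth in these shares was not tested. Mean methylation was 32.6%, 32.8%, 32.9% and 32.4% in the same order.

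Values at single CpGs were further apart between DBP+agent samples than between DBP samples. With 10 reads drawn, Pearson's r over the 125641 positions was 0.930 to 0.933 between DBP samples, 0.901 to 0.920 between DBP+agent samples and 0.908 to 0.931 between samples of different groups. The lowest values all involved DBP+agent sample 3, at 0.901 to 0.910 with the other samples of either group. DBP+agent samples 1 and 2 were at 0.920 with each other, and sample 1 was at 0.927 to 0.931 with the DBP samples. Positions within a sample are not independent, so these values are descriptions. The SD between samples averaged 6.18 points in DBP and 7.04 points in DBP+agent. At the 471 CpGs where both strands passed the depth limit, the strands of 1 CpG differed by 18.2, 17.2 and 17.0 points in the DBP samples. They differed by 19.4, 18.7 and 21.7 points in the DBP+agent samples, which were all higher (exact permutation test, p = 0.1). The squared difference between strands was 1.6 ± 0.0843 times (SD, n = 3) the value that drawing reads alone would give in DBP and 2.29 ± 0.474 times in DBP+agent. The DBP+agent samples were at 1.97, 2.06 and 2.83 times, so sample 3 was again the farthest out. Depth was equal in this measure because 10 reads were drawn on each strand.

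At single positions, logistic regression called 497 of 125641 (0.396%) at q below 0.01 and a difference over 25 points, 267 higher with the agent (0.213%) and 230 lower (0.183%). At a difference over 10 points it called 1435 (1.14%), 792 higher (0.63%) and 643 lower (0.512%). This regression, the test of the study's methods, adds up the reads of a group and takes them as independent. In 376 of the 497 positions (0.299% of those tested) all samples of 1 group lay on the same side of all samples of the other, and of all positions 6796 (5.41%) had groups that did not overlap. The edgeR quasi-likelihood test, which estimates the spread between samples, called 0 positions at q below 0.01 and over 10 points, with 3968 positions (3.16%) at an unadjusted p below 0.05. At any size of difference, 12 positions had an edgeR adjusted p below 0.05 and 9 of them below 0.01. limma on the logit scale also called 0, with 39908 positions (31.8%) at an unadjusted p below 0.05. On simulated data limma recovered few changed positions and gave too many small unadjusted p at unequal depth, so its 0 is not a second check. Of the 497 positions, 279 had an unadjusted edgeR p below 0.05 and 1 had an adjusted p below 0.05. With that 1 exception at a looser threshold, no call of the regression was kept by edgeR. When the DBP+agent reads were thinned at each position to the mean DBP depth, the regression called 259 positions at 25 points and 425 at 10 points. With 10 reads drawn in every sample it called 0, with 9249 positions at an unadjusted p below 0.05. Without DBP+agent sample 1, the deepest, it called 1478 positions at 25 points.

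**Figure D2:**
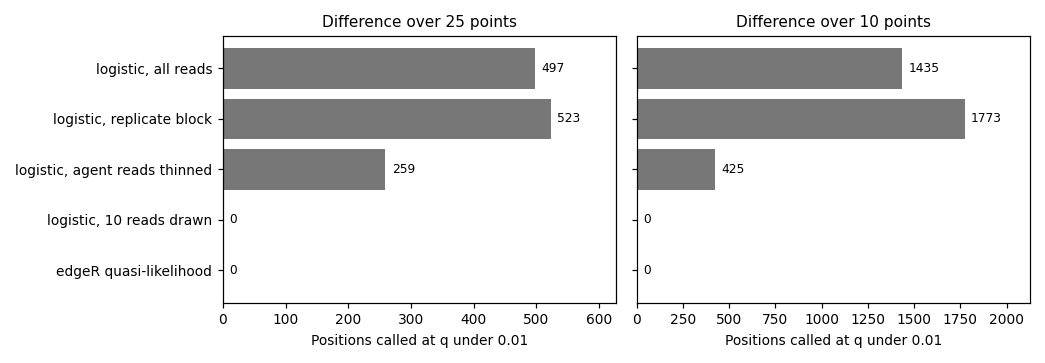
Positions called at q below 0.01 with a difference over 25 points (left) or over 10 points (right), by the regression on all reads, with a term for replicate number, with DBP+agent reads thinned to the DBP depth, with 10 reads drawn, and by edgeR (bars, counts). The counts of 497 and 1435 on all reads become 259 and 425 after thinning, and 0 with 10 reads or edgeR.

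The 497 called positions lay less often in promoters than the tested ones. Of the called positions 39.6% were within 1000 bp of a protein-coding start, against 58.1% of the tested positions, and 31.2% were in CpG-dense sequence, against 54.8%. Those higher with the agent were in promoters in 50.2% of cases and those lower in 27.4%. The called positions were spread over all 19 autosomes. By class, 0.270% of promoter positions were called, 0.613% of those at 1 to 5 kb, 0.678% of exonic, 0.568% of intronic and 0.504% of intergenic positions. Positions higher with the agent went from a median of 29.8% in DBP to 61.4%, and those lower went from 64.8% to 33.9%. All 3 DBP+agent samples were at 100% at 3 of the higher positions. These values describe positions that the same test selected, and were not tested.

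Called positions were also frequent at the cut sites of MspI. A CpG inside CCGG made up 28.2% of the tested positions, 47.1% of the 497 called ones and 54.8% of the 6796 that did not overlap. Of the positions called higher 59.9% were in CCGG, and of those called lower 32.2%. Mean methylation inside CCGG was 57.8%, 57.7% and 57.6% in the DBP samples and 61.3%, 57.5% and 56.5% in the DBP+agent samples (exact permutation test, p = 1). The DBP+agent samples lay on both sides of the DBP samples there, with SDs of 2.54 and 0.119 points. Outside CCGG the levels were 18.6% ± 0.209 (SD, n = 3) and 18.4% ± 0.150. Neither the part of the cut site nor that of these unlike starting levels in the calls was tested.

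The positions described next were picked as the smallest p among called positions whose groups did not overlap, so neither the p nor the lack of overlap is separate support for them. Of the 10 higher with the agent, 2 were fully methylated in all DBP+agent samples. At the intergenic position chr8:10854211, 11 of 18, 20 of 27 and 21 of 27 reads were methylated in the DBP samples, or 61.1%, 74.1% and 77.8%. In the DBP+agent samples 51 of 51, 66 of 66 and 78 of 78 reads were methylated, and their Wilson intervals began at 93.0%, 94.5% and 95.3%. The difference of pooled reads was 27.8 points (logistic regression, q = 4.47e-10), and this was the 1 called position that edgeR also placed below 0.05 (edgeR adjusted p = 0.0447). Without DBP sample 1 the difference was 24.1 points and the position was no longer called. It was 87.0%, 71.4% and 63.6% methylated in the DMSO samples and 97.6%, 84.1% and 71.6% in the DBP+BR extract samples. Wars, which encodes tryptophanyl-tRNA synthetase, was 73.5%, 81.2% and 64.7% methylated in DBP and 100% in all DBP+agent samples at chr12:110098600, in an untranslated exon. Here the edgeR adjusted p was 0.0667, and the 2 DMSO samples with enough reads stood at 96.7% and 87.0%. Without DBP sample 3 its difference was 22.7 points, below the limit of 25.

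At the other genes of this set the DBP+agent samples were more scattered. Fosb, a subunit of the AP-1 transcription factor, was 28.6%, 7.69% and 8% methylated in DBP at a CpG of its coding sequence (chr7:19890280). It was 58.4%, 62.5% and 81.8% in DBP+agent, from 13 to 89 reads per sample. The 2 DMSO samples with at least 10 reads stood at 30% and 28.6%, at or above each DBP sample and below each DBP+agent sample. Nek6, a mitotic kinase, was 16.7%, 23.5% and 5.88% methylated 38 bp upstream of its start (chr2:38367125) in DBP and 86.2%, 33.3% and 63.0% in DBP+agent. Of the 10 other compared positions within 100 bp of it, 1 was over 10 points higher. Rgma, a guidance molecule and BMP co-receptor, was 14.3%, 27.3% and 18.8% methylated in its intron (chr7:80521276) in DBP and 70.2%, 51.4% and 61.5% in DBP+agent. Its 2 DMSO samples with at least 10 reads stood at 60.7% and 54.5%, among the DBP+agent values, and its DBP+BR extract samples averaged 32.9%. Nmnat2, an enzyme of NAD synthesis, was 26.1%, 40% and 5.56% methylated in DBP and 44.7%, 88.0% and 51.6% in DBP+agent (chr1:154803078, intron). Lrfn3, a synaptic adhesion protein, and Matn1, a cartilage matrix protein, went from 46.6% ± 10.2 (SD, n = 3) to 92.0% ± 7.33 and from 67.0% ± 20.9 to 98.8% ± 2.14 at CpGs of their coding sequence (chr7:31140979 and chr4:130501761). The last 2 positions were in an intron of the gene model 4930449A18Rik (chr3:59600397), at 41.7% ± 15.5 and 83.0% ± 8.80, and at chr4:140416383 between genes, at 29.9% ± 16.4 and 76.2% ± 26.9. The logistic q of the 10 positions ran up to 1.10e-06, and the edgeR adjusted p was 0.753 or more in the 8 positions other than the first 2. Matn1 was no longer called without DBP sample 1 (18.6 points), nor Nmnat2 without DBP+agent sample 2 (24.3 points). Of the other compared positions within 100 bp, 1 of 6 at Lrfn3, 1 of 4 at Matn1, 0 of 2 at Nmnat2 and 0 of 3 at 4930449A18Rik were over 10 points higher, against 2 of 3 at Fosb. Wars and the position on chromosome 8 had 1 such neighbour each, over 10 points higher.

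**Figure D3:**
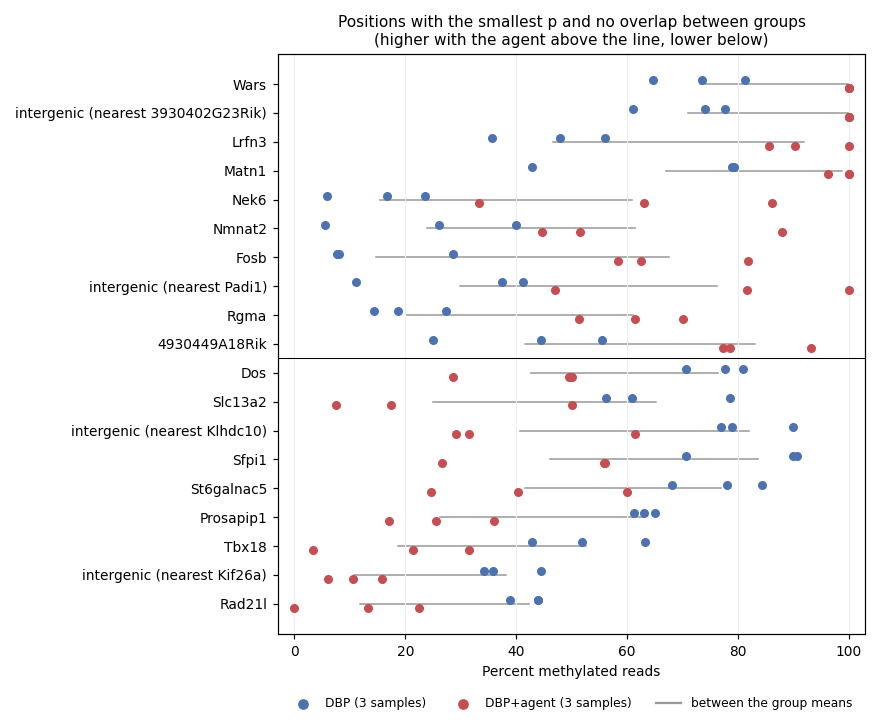
Percent of methylated reads in each DBP and DBP+agent sample (points) at positions with the smallest p whose groups did not overlap, 10 higher with the agent (above the line) and 9 lower (below). Grey lines join the group means. The DBP+agent points reach 100% at Wars and the first intergenic position and scatter from 33.3% to 86.2% at Nek6.

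The positions named among those lower with the agent included 1 in a transcription factor gene of blood cells. Sfpi1, which encodes the factor PU.1 of myeloid and B cells, was 90.6%, 70.6% and 90.0% methylated in an intron (chr2:90924760) in DBP and 56.0%, 26.6% and 55.8% in DBP+agent. All 4 other compared positions within 100 bp were lower by over 10 points, and 1 of them was called at 10 points. The DMSO samples stood at 72%, 71.4% and 50.0% and all DBP+BR extract samples at 100%. Dos, a regulator of calcium channels, had the smallest p of those lower. It was 77.8%, 81.0% and 70.6% methylated in its coding sequence (chr10:79594924) in DBP and 50.0%, 49.6% and 28.7% in DBP+agent, with 42 to 232 reads per sample (difference -32.4 points, logistic q = 1.06e-09, edgeR unadjusted p = 0.0202). The DMSO samples, at 65.8%, 63.2% and 53.8%, lay between the groups. None of the 3 other compared positions within 100 bp was over 10 points lower, and their median difference was -1.34 points.

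At Rad21l, which encodes a cohesin subunit of meiosis, the position 1539 bp upstream of the start (chr2:151495808) was 44.0%, 43.9% and 38.9% methylated in DBP and 13.3%, 22.4% and 0% in DBP+agent. The last value came from 0 of 45 reads, which allows a share of up to 6.67%. At this position the DMSO samples stood at 42.9%, 35.9% and 66.7%, and the 2 DBP+BR extract samples with at least 10 reads at 31.8% and 85.4%. Prosapip1, a synaptic protein, was within 61.4% to 65.0% in the DBP samples and within 17.1% to 36.1% in the DBP+agent samples at a CpG of its coding sequence (chr2:130461694). Its DMSO samples stood at 52.4%, 82.4% and 46.2%. Tbx18, a T-box transcription factor, fell by 34 points 1439 bp upstream of its start (chr9:87627534), from 52.7% ± 10.3 (SD, n = 3) to 18.7% ± 14.3. St6galnac5, a sialyltransferase, was at 76.9% ± 8.17 and 41.7% ± 17.7 in an intron (chr3:152592314). Slc13a2, a dicarboxylate transporter, was at 65.2% ± 11.8 and 25% ± 22.2 in an untranslated exon (chr11:78210760), where 2 other called positions lay within 100 bp. The 2 intergenic positions, chr6:30419710 and chr12:113475248, were at 82.0% ± 7.04 and 40.7% ± 18.1, and at 38.2% ± 5.46 and 10.8% ± 4.89. The edgeR adjusted p was 1 at all of these positions. On leaving out 1 sample, 3 of them were lost. Tbx18 and Rad21l were at -24.4 and -25.0 points without DBP+agent sample 3, and the position on chromosome 12 was at -24.1 points without DBP sample 1. Within 100 bp, 0 of 2 other compared positions at Rad21l, 0 of 1 at Tbx18 and 1 of 3 at Prosapip1 were over 10 points lower, against 3 of 3 at the position on chromosome 12.

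Only 5 called positions had the cytosine of the other strand among the compared positions. The difference had the same sign on the other strand in 2 of these 5, and in 0 of them was it over 10 points in the same direction. The median difference was 31.2 points at the higher ones and -3.79 on their other strand. At the lower ones it was -32.2 points, and 0.53 on the other strand. The remaining called differences could not be checked on the other strand of the same CpG.

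Neighbouring CpGs of 1 fragment share reads, so a group of them is not independent evidence, but it shows how far a difference extended. Groups of at least 3 positions called at 10 points in the same direction within 500 bp numbered 14, with 6 higher and 8 lower. A lower group near an imprinted gene was in an intron of Commd1, a copper and endosome protein, 590 to 634 bp upstream of the start of Zrsr1, an imprinted gene that lies inside it. Reads summed over its 4 positions were 51.9%, 61.2% and 50.0% methylated in DBP and 27.3%, 11.1% and 34.5% in DBP+agent. All 4 were called at 25 points and none overlapped between groups. The first was lost without DBP sample 2 (-25.6 points, logistic q = 0.0376), the third without DBP+agent sample 2 (-22.9 points), and the last without any 1 DBP sample (-27.9, -24.2 and -23.9 points) or DBP+agent sample 2 (-17.6 points). The DMSO samples averaged 47.9% and the DBP+BR extract samples 31.5%. Intu, a protein of cilium formation and planar polarity, was at 88.1%, 71.4% and 75.0% over 3 positions in DBP and at 55.4%, 41.9% and 0% in DBP+agent, where 0 of 33 reads allow a share of up to 9.09%. Gsto2, a glutathione transferase of the omega class, was at 59.7%, 41.4% and 23.0% in DBP and at 20%, 17.3% and 17.1% in DBP+agent. There DMSO averaged 19.5% and DBP+BR extract 37.6%. Rnf39 had the most called positions, 7 within 51 bp, but its groups overlapped, at 36.3%, 13.5% and 5.19% in DBP and 7.51%, 1.31% and 5.46% in DBP+agent.

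Of the higher groups, the 4 positions between chr3:97116213 and chr3:97116234, outside genes, were nearly unmethylated in DBP. Summed over them, the DBP samples were 2.00%, 0% and 0% methylated, from 100 to 200 reads, and the DBP+agent samples were 16.3%, 21.7% and 25.1%. With 0 of 100 and 0 of 123 reads, shares of up to 3.00% and 2.44% are allowed in the latter 2 DBP samples. DMSO averaged 7% and DBP+BR extract 2.04%. Nrcam, a neural adhesion protein, was at 0%, 4.04% and 2.50% in DBP and at 16.7%, 7% and 33.2% in DBP+agent over the 5 compared positions of a group near its start, where 0 of 91 reads in the first sample allow up to 3.3%. Cacna1h, a T-type calcium channel, was at 40.2%, 60.3% and 51.0% in DBP and 58.8%, 67.7% and 84.1% in DBP+agent, which overlapped.

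Tiles gather the reads of neighbouring CpGs and gave fewer calls at 25 points. Logistic regression called 60 of 46768 tiles (0.128%) over 25 points, 27 higher (0.0577%) and 33 lower (0.0706%). Over 10 points it called 1079 (2.31%), 567 higher (1.21%) and 512 lower (1.09%). The groups did not overlap in 42 of the 60 (0.0898% of those tested), and in 4706 of all tiles (10.1%). edgeR called 0 tiles, with 1727 (3.69%) at an unadjusted p below 0.05, of which 55 were among the 60. limma called 0, with 2409 at an unadjusted p below 0.05. A tile holds different CpGs in different samples where depth differs, so each named tile was also computed over the positions read in all 6 samples. The named tiles were picked by smallest p and lack of overlap, so neither is separate support for them.

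Among the higher tiles, Dlgap3, a postsynaptic scaffold, showed the lowest DBP values. A tile in its coding sequence (chr4:126892001-126893000) was 0%, 2.78% and 3.33% methylated in DBP and 26.3%, 32.2% and 32.2% in DBP+agent, from 20 to 121 reads. The first value, from 0 of 20 reads, allows a share of up to 15%. Over the 5 positions shared by all samples the means were 0.926% and 29.2%, and the edgeR unadjusted p was 0.000226. Frzb, a secreted Wnt antagonist (chr2:80253001-80254000), was 59.1%, 41.2% and 34.8% methylated in DBP and 70.5%, 85.8% and 97.8% in DBP+agent over 10 positions that all samples shared. The DMSO samples stood at 64.5%, 35.9% and 75.0%, across both groups. Zbtb16, the zinc finger factor PLZF, was 54.1%, 61.1% and 50.0% in an intron (chr9:48538001-48539000) in DBP and 72.7%, 90.9% and 82.9% in DBP+agent. Kcnq1, a potassium channel whose intron also holds an imprinting control region, was at 36.9% ± 7.63 (SD, n = 3) and 75.3% ± 8.42 in an intronic tile (chr7:150598001-150599000), 263837 bp from its start. Rab1b, a GTPase of transport from the endoplasmic reticulum, had the smallest p among the higher tiles (chr19:5107001-5108000), at 18.3%, 50.0% and 58.5% in DBP and 78.7%, 82.0% and 81.1% in DBP+agent. Of 35 positions read in this tile only 1 was read in all 6 samples, where the means were 54.1% and 83.6%. Lsp1, an actin-binding protein of leukocytes, was at 54.1% ± 9.94 and 83.1% ± 11.0, and Plscr3, a phospholipid scramblase, at 37.6% ± 9.57 and 69.7% ± 7.67. The other 3 were in an intron of the model Gm20388 and between genes on chromosomes 5 and 19. Rab1b was no longer called without DBP sample 1 (24.1 points), Lsp1 and the tile on chromosome 19 without DBP+agent sample 1 (19.7 and 24.7 points), and Gm20388 without DBP+agent sample 3 (24.5 points). Zbtb16 was lost without DBP sample 3 (24.5 points) or DBP+agent sample 2 (21.8 points). The tile on chromosome 5 was lost without DBP sample 1 (24.4 points) or DBP+agent samples 1 or 2 (22.6 and 24.8 points).

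Among the lower tiles, Hopx and Intu had the smallest p. Hopx, a homeodomain protein of epithelial and muscle differentiation, was 59.2%, 43.1% and 50.8% methylated in a tile across its start (chr5:77544001-77545000) in DBP and 32.0%, 14.6% and 13.4% in DBP+agent, from 58 to 247 reads. All 4 compared positions inside it were lower, and over shared positions the means were 47.1% and 19.3%. Their reads are part of the tile's own, so they are not separate support. The DMSO samples stood at 47.4%, 23.5% and 34%, between and across the groups. The Intu tile (chr3:40487001-40488000), which holds the group of positions above, was 90.3%, 74.1% and 81.0% in DBP and 67.9%, 54.9% and 30.2% in DBP+agent. Tmcc1, a protein of the endoplasmic reticulum, was 100%, 94.4% and 100% in DBP and 69.2%, 77.8% and 67.9% in DBP+agent. Prkcb, a protein kinase C, was at 57.8% ± 8.39 (SD, n = 3) and 29% ± 12.6, while its DMSO samples stood at 24.5%, 14.7% and 6.67%. Its DBP+BR extract samples averaged 46.5%. Zfp513, a zinc finger factor, was at 82.6% ± 4.40 and 51.3% ± 20.2. Paqr7, a membrane progestin receptor, Ptpn13, a tyrosine phosphatase, AI464131 and an intergenic tile on chromosome 6 were the others. Intu was no longer called without DBP sample 1 (-23.4 points) or DBP+agent sample 3 (-21.7 points), Tmcc1 without DBP+agent sample 1 (-24.2 points), and Zfp513 without DBP+agent sample 2 (-15.3 points). Paqr7 was lost without DBP sample 2 (-23.1 points) or DBP+agent sample 1 (-12.2 points), Ptpn13 without DBP sample 3 (-16.7 points) or DBP+agent sample 1 (-22.0 points), and AI464131 without DBP samples 2 or 3 (-18.5 and -24.5 points) or DBP+agent sample 3 (-20.7 points).

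**Figure D4:**
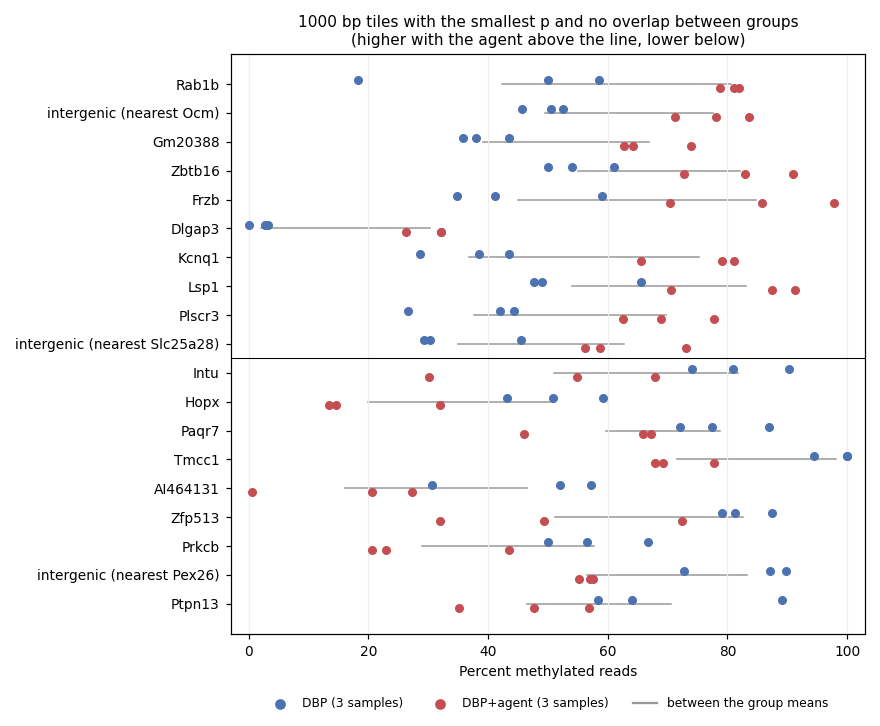
Percent of methylated reads in each DBP and DBP+agent sample (points) in tiles of 1000 bp with the smallest p whose groups did not overlap, 10 higher with the agent (above the line) and 9 lower (below). Grey lines join the group means. Dlgap3 goes from at most 3.33% to at least 26.3%, and Hopx from at least 43.1% to at most 32.0%.

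Gene lists related to the carcinogen and its prevention held at most 1 called position each, and calls were also rare near starts in general. In lists this small, 0 or 1 call does not set a list apart. Values are counts of positions within 1000 bp of a start. Of all positions within 1000 bp of a protein-coding start, 0.270% were called at 25 points, 0.679% at 10 points, and 3.02% did not overlap between groups. Of 185 positions near 21 genes of phase II detoxification and NRF2 targets, 1 was called. It was in an intron of Mafg, the small Maf partner of NRF2 (chr11:120494451), at 66.7%, 44.4% and 74.1% in DBP and 38.9%, 35.1% and 42.2% in DBP+agent. It was lost without DBP samples 1 or 3 (-24.2 and -19.7 points) or DBP+agent sample 2 (-24.0 points), and in a fit with replicate number as a term. The mean of the list was 6.61% ± 0.862 (SD, n = 3) in DBP and 6.23% ± 0.391 in DBP+agent. None of 81 positions near 8 genes of the AhR pathway and DBP activation was called, and the means were 5.27% and 5.97%. Near 20 genes for repair and bypass of bulky adducts, 0 of 129 positions were called at 25 points and 1 at 10 points, at Pold1, where DBP+agent sample 3 alone stood low at 30.4% and the others were at 88.0% or more. None of 137 positions near 20 genes that write, read or erase DNA methylation was called, nor any of 256 near 27 tumor suppressors silenced in oral cancer. The means of the suppressor list were 7.76% and 7.79%.

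Mmp9, a collagen-cleaving metalloproteinase, carried the 1 position called at 25 points among 151 near 17 inflammation genes. The position was 10 bp upstream of an annotated start (chr2:164776186) and was 22.6%, 24.1% and 34.3% methylated in DBP and 70.5%, 41.8% and 50.0% in DBP+agent (logistic q = 0.000436, edgeR unadjusted p = 0.0976). The groups did not overlap, and the 2 DMSO samples with at least 10 reads stood at 20% and 44.0%. The call was lost without DBP sample 1 (25.9 points, logistic q = 0.0158) or DBP+agent sample 1 (17.1 points). At 10 points this list also held Jak2, a cytokine receptor kinase, which was higher 640 bp upstream of its start (chr19:29325678) at 7.69%, 0% and 0% in DBP and 25.4%, 26.8% and 9.09% in DBP+agent, although 0 of 19 and 0 of 15 reads allow up to 15.8% and 20%. Stat3, the transcription factor downstream of Jak2, was lower near its start (chr11:100800578) at 44.0%, 36.0% and 36.8% in DBP and 21.8%, 14.3% and 8.47% in DBP+agent. Of 224 positions near 27 Hox genes, 0 were called at 25 points and 1 at 10 points, 304 bp upstream of Hoxa11 (chr6:52196517), at 13.6%, 4% and 22.2% in DBP and 0% in all DBP+agent samples. Their 85, 52 and 63 reads allow shares of up to 3.53%, 5.77% and 4.76%.

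By count, imprinted genes held the most calls of any list, though the lists differ in size. All of these calls were lower with the agent. Of 211 positions near 19 imprinted genes, 6 were called at 25 points, 4 of them the Zrsr1 group above and 1 each at Grb10 and Meg3. Of all positions near a start, 0.270% were called at 25 points. At 10 points the share called was 2.84% in this list, 5% in the skeletal muscle list and 0.679% near all starts. The positions that did not overlap between groups numbered 20 (9.48%), beside 3.02% of all positions near a start. In the more methylated exons and introns that share was 9.23% and 9.55%, so on this measure the list does not stand out from them. At 25 points 0.678% of exonic and 0.568% of intronic positions were called, a lower share than in the list. The 4 called positions of the Zrsr1 group lie within 45 bp and are not independent, and the share called was not tested. Levels in DBP ran from 5% at Phlda2 to 93.3% at Magel2. The mean over the list was 26.5%, 26.8% and 24.2% in DBP and 24.6%, 22.7% and 22.6% in DBP+agent, which overlapped. Over its 16 positions Zrsr1 stood at 50.6%, 49.4% and 38.8% in DBP and 37.5%, 29.4% and 20% in DBP+agent, without overlap. Grb10, a growth factor receptor adaptor, was 57.1%, 50.0% and 37.5% in DBP and 39.2%, 12.5% and 0% in DBP+agent at its called position (chr11:11926176), with 0 of 63 reads (up to 4.76%) in the last sample. The groups overlapped, and its 18 positions averaged 22% and 20.7%. Meg3, a maternally expressed RNA, overlapped at its called position (chr12:110784119), at 83.3%, 72.2% and 88.9% in DBP and 60.9%, 75.4% and 31.9% in DBP+agent. Without DBP+agent sample 3 Grb10 and Meg3 were at -14.6 and -17.3 points and were not called. Nor was either called without DBP sample 1 (-23.5 and -26.1 points), Grb10 without DBP sample 2 (-28.4) or DBP+agent sample 2 (-27.9), or Meg3 without DBP sample 3 (-21.7). Nespas and Nap1l5 averaged 37.8% and 58.9% in DBP and 22.2% and 41.1% in DBP+agent, with overlap in both. Besides Zrsr1, Magel2 and Ascl2 were lower without overlap, from 93.3% to 60% at 1 position and from 9.67% to 5.00% over 10. H19 was higher without overlap, at 80% in all DBP samples and 95%, 85.0% and 90.0% in DBP+agent, over 2 positions. Snrpn ranged from 50.0% to 55.0% in DBP and from 25% to 68.3% in DBP+agent.

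**Figure D5:**
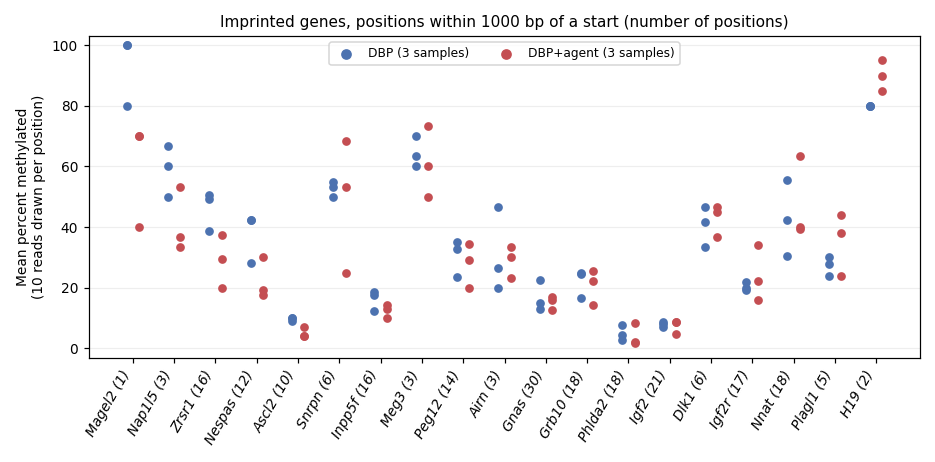
Mean percent methylated in each DBP and DBP+agent sample (points) over the compared positions within 1000 bp of a start of 19 imprinted genes, ordered by the difference of the means. The number of positions is in parentheses. Zrsr1, with 16 positions, is lower without overlap, and Snrpn spreads from 25% to 68.3% in DBP+agent.

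Marker lists of the cell types that pooled oral tissue can hold overlapped between groups in their mean methylation, and the salivary gland list differed most, at 6.46% ± 2.13 (SD, n = 3) in DBP and 8.96% ± 1.78 in DBP+agent. Near 8 squamous epithelium genes, 0 of 41 positions were called, and the list averaged 20.9% ± 0.563 (SD, n = 3) in DBP and 20.8% ± 2.46 in DBP+agent. Near 2 leukocyte genes 0 of 14 were called, near 4 salivary gland genes 0 of 32, and near 4 fibroblast and vessel genes 0 of 26. The leukocyte list averaged 26.0% in both groups, but it rests on Coro1a and Lcp1 and does not hold Sfpi1. Near 7 skeletal muscle genes 3 of 60 positions were called, all lower with the agent, beside 0.270% of all positions near a start. Positions without overlap made up 11.7%, beside 3.02% of all positions near a start. In the more methylated exons and introns they made up 9.23% and 9.55%. The list averaged 31.0%, 28.3% and 32.5% in DBP and 29%, 31.0% and 27.8% in DBP+agent. The genes of the list differed in sign. Actn3 was higher without overlap, by 6.67 points on average, and Cacna1s, Myod1 and Des had differences of 8.89, 1.67 and 0.805 points with overlap, while those of Mylpf, Tnni2 and Pygm were negative, also with overlap. One of the 3 was in a coding exon of Pygm, muscle glycogen phosphorylase (chr19:6384524), at 66.7%, 39.3% and 21.7% in DBP and 16.3%, 1.67% and 11.1% in DBP+agent. The other 2 were 942 and 955 bp from the start of Mylpf, a myosin light chain of fast muscle, inside the gene Sept1. The start of Sept1 was nearer, at 287 and 274 bp. Both sites had the same number of reads in each sample, so they are not independent. Pygm was lost without DBP sample 1 (-21.0 points) or DBP+agent sample 2 (-24.3 points). The site at 955 bp was lost without DBP sample 3 (-31.4 points, logistic q = 0.0269), and that at 942 bp without DBP samples 2 or 3 or DBP+agent samples 2 or 3, at -28.6, -25.2, -27.0 and -29.8 points. Levels of methylation cannot tell a change in the mix of cells from a change within cells, and the part of the cell mix in the values above was not tested.

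Sites that differ between DBP and DMSO were read in the DBP+agent samples as values side by side, since both comparisons share the DBP samples. With the filters and scaling of the study's methods, 30 of 52423 CpGs (0.0572%) were called between DBP and DMSO over 25 points, and all 30 had at least 10 reads in every DBP+agent sample. The DBP+agent and DBP samples did not overlap at 6 of these 30, beside 5.41% of the compared positions, and 3 were called, beside 0.396%. The sites had been chosen by the same DBP values, so neither share was tested. Over all 30, the DBP+agent mean differed from the DMSO mean by a median of 19.3 points and from the DBP mean by a median of 14.5 points, regardless of sign. At the CpG 9543 bp upstream of Fgf3, a fibroblast growth factor (chr7:152014445), the DMSO samples were 55.6%, 33.3% and 31.2% methylated, the DBP samples 87.5%, 70.0% and 68.8%, and the DBP+agent samples 51.0%, 48.8% and 29.3%. At Qrich2 (chr11:116317982, 1431 bp upstream) they were 42.9%, 33.3% and 68.8%, then 86.7%, 72% and 100%, then 45.2%, 70.8% and 66.7%. Both sites were called between DBP+agent and DBP, as was an intronic site of Fam82a1 (chr17:80062330), where DBP stood at 88.2% to 97.3% and the DBP+agent samples at 63.2%, 15.4% and 89.5%, with overlap. At other sites the DBP+agent mean lay close to the DBP mean. At Cenpt, a kinetochore protein, the means were 33.7% in DMSO, 67.5% in DBP and 66.8% in DBP+agent, at Npdc1 43.9%, 75.2% and 71.3%, and near Zfp316 29.1%, 5.89% and 6.16%.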

How the data were processed

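DNA methylation was measured by ERRBS from 50 ng of DNA per sample (MspI fragments of 70 to 320 bp, 18 PCR cycles, 50 bp single reads, 6 libraries per lane). Which library ran in which lane is not given in the sources used here. The authors trimmed reads with Trim Galore 0.3.3, aligned them to mm9 and called CpGs with Bismark 0.10.1, per the labels' processing notes and the study's methods. They deposited, for each CpG cytosine and strand, the counts of methylated and unmethylated reads without normalization, and the percent methylated that follows from them. The counts were used here and the percent was not.

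Positions needed at least 10 reads in all 6 samples and tiles at least 20. Logistic regression on group was run for each (likelihood ratio test), with Benjamini-Hochberg q taken over all of a kind. A feature was called where q was below 0.01 and the percentages of the groups' pooled reads lay over 25 or 10 points apart. Means and shares per sample came from 10 reads drawn per position, and their groups were set against each other by the two-sided exact permutation test. edgeR 4.0.16 (quasi-likelihood, methylated and unmethylated counts in 1 model) and limma 3.58.1 (logit with 0.5 reads added) in R 4.3.3 were alternatives. Other steps used Python 3.11.15, NumPy 2.4.6, pandas 2.3.3 and SciPy 1.17.1. All tests were tested on simulated data. There the regression made calls without a true difference once samples were given a spread, and limma recovered few changed positions and gave too many small unadjusted p at positions of unequal depth. edgeR made no false call there and, with that spread, found only the larger true differences. Alternatives changed the coverage limits, upper filter, scaling, test, q, replicate block and samples.

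Classes and gene names come from GENCODE vM1 on the same assembly. CpG-dense means a GC share of at least 0.55 and an observed over expected CpG ratio of at least 0.65 within 501 bp. Genes were named for the 10 positions (at most 1 per 1000 bp) and 10 tiles per direction with the smallest p whose groups did not overlap, for groups of at least 3 positions called at 10 points within 500 bp, and for called sites within 1000 bp of a start of a listed gene. A site takes the gene that holds it, or the nearest start within 5 kb. Jak2, Stat3, Pold1, Hoxa11 and the imprinted genes with no call were chosen after their values were seen, as were Fgf3, Qrich2, Fam82a1, Cenpt, Npdc1 and Zfp316. Chromosome 18 was left out of named sites, and 1 position and 1 tile of those so named are not reported here, though counted among the named sites in the alternatives. The comparison, its members and the lists were chosen with earlier results of these data known. Of the leukocyte list, 18 of 20 symbols were in the annotation, which has Spi1 as Sfpi1, so this gene was left out of the list. Its named position, 2195 bp from a start, was also beyond the 1000 bp used for lists. CpG positions in repeats were not separated here, since the genome used is not masked.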

Additional observations from a re-analysis of the deposited data

How the results depend on the processing

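Counts of called positions moved with depth and with the test. At 25 and 10 points the counts of 497 and 1435 became 98 and 758 with at least 20 reads in every sample (41719 positions tested), 878 and 6476 with the study's filter, scaling and merging of strands (124496 CpGs), and 783 and 3557 at q below 0.05. They became 259 and 425 with DBP+agent reads thinned to the DBP depth, an alternative added after the data were seen. They became 0 and 0 with 10 reads drawn, with edgeR and with limma. Leaving out 1 sample gave 361 to 1478 and 770 to 3390 positions. The highest counts came without DBP+agent sample 1. At 25 points 866 positions were called without DBP+agent sample 2, and at 10 points 770 and 925 without DBP samples 1 and 3. Tiles went from 60 and 1079 to 7 and 560 with at least 40 reads and to 0 and 0 with edgeR and limma. At q below 0.05 there were 1954 tiles over 10 points. Leaving out 1 sample gave 92 to 210 and 795 to 1953 tiles, so all of these counts at 25 points were above 60. The study's scaling multiplied the counts of each sample up to the largest median depth, so the test counted more reads than the shallower samples held. Apart from this scaling, the number of features tested and the reads removed, the cause of these moves was not tested.

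Samples with the same number did not deviate together (correlations of -0.0076, -0.0031 and -0.0088), so the numbers do not pair the samples. With a replicate block 523 and 1773 positions and 57 and 1133 tiles were called, and the difference of means stayed 0.09 points.

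The difference of mean methylation changed sign with at least 20 reads (-0.033 points), over all calls (-2.44) and on leaving out 1 sample (-0.374 to 0.389). So did the promoter difference (-0.047 with at least 20 reads, and -0.397 to 0.340), the intron difference (-0.192 with at least 20 reads, -0.018 with another draw, and -0.349 to 0.534) and the exon difference (-0.0030 with another draw, and -0.193 to 0.496). On leaving out 1 sample the difference at 1 to 5 kb ran from -0.609 to 0.193 and the intergenic one from -0.193 to 0.596. The shares below 20%, from 20% to 80% and above 80% kept their direction in every alternative run, at 0.128 to 1.65, -2.74 to -1.21 and 1.03 to 1.30 points on leaving out 1 sample. None of the 31 named positions and 20 named tiles changed direction. They were picked for a large difference, and most for groups without overlap, so the kept direction is not separate support. With the block 30 positions and 20 tiles stayed called, with thinning 23 positions, over shared positions 17 tiles, and on leaving out any 1 sample 13 positions and 7 tiles. With edgeR 0 of either stayed called at q below 0.01.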
